A study of Mus musculus with 2 samples.

Results

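Nr1h3, Rxra, Id1, Id3, Spic and Maf are transcription factor genes tied to the identity of Kupffer cells (KCs), the resident macrophages of the liver sinusoids. The rows of these 6 genes, all of them present among the 25909 genes of the count matrix, were chosen by name and compared between marker-gated classes of liver myeloid cells, mouse by mouse. Counts came from 15384 single cells. The comparison asked where these factors stand in resident KCs, in macrophages that carry the KC gene Cd5l during steatohepatitis, in the other macrophages and in the monocytes.

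The study took CD11b+ innate immune cells from the livers of 4 mice, tagged each mouse with its own hashtag antibody and ran them together in a single capture. Egr2fl/fl mice, called control here, carry a loxP-flanked Egr2 gene. In Lyz2Cre/+.Egr2fl/fl mice, called Cre here, the recombinase is driven from Lyz2, which acts in much of the myeloid lineage, so neutrophils and monocytes as well as macrophages lie within its reach, and all 4 mice carry the floxed allele. Mice of each genotype were fed either a normal diet (ND) or, for 7 weeks, a high-fat diet without choline whose protein is replaced by L-amino acids (CDA-HFD), which produces steatohepatitis. By the study's methods the mice put on CDA-HFD were males, and the age of 6 to 12 weeks is given for the feeding and not for the day of sampling. Each combination of genotype and diet was 1 mouse, so genotype and diet were each compared on single mice and no test was run, and every interval below is a 95% interval for counting error alone, exact Poisson for levels, exact binomial for shares and for ratios.

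Nr1h3 encodes LXRalpha, a nuclear receptor for oxysterols that binds DNA with its partner RXRalpha, the product of Rxra. Id1 and Id3 encode helix-loop-helix proteins without a DNA-binding region, which hold E proteins off DNA and are classic targets of BMP and TGF-beta signalling. Spic encodes an Ets factor known from macrophages that recycle the iron of red blood cells, and Maf encodes c-Maf, a basic leucine zipper factor of resident macrophages. In the liver, LXRalpha and Id3 are known to be required for a normal KC population, and monocytes that settle in an emptied KC niche are known to switch on Nr1h3 and Id3.

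Total counts per mouse ranged from 27847027 to 90135326, with medians of 13166 to 16447 counts per cell, and 1392 of 16786 barcodes (8.29%), which the authors had named hashtag doublets, were left out. The targeted gene, Egr2, stood at 13.3 CPM (counts of a gene per 1000000 counts of the class or mouse) in the control and 5.85 CPM in the Cre mouse on ND, and at 49.4 and 18.2 CPM on CDA-HFD. KCs were gated by counts of both Clec4f and Timd4, which gave 662 and 736 cells in the control and Cre mouse on ND but only 7 and 11 on CDA-HFD. Macrophages outside that gate, with Adgre1 and at least 2 of the 3 C1q genes, were divided into Cd5l+ macrophages (113 and 172 cells on CDA-HFD, 26 and 31 on ND) and other macrophages (947 and 1014 cells on CDA-HFD, 98 and 74 on ND). Ly6Chi monocytes, gated by Ly6c2 and Ccr2, held 151 and 67 cells on ND and 942 and 1120 on CDA-HFD, and Ly6Clo monocytes 160, 110, 819 and 966 cells. The Ly6Clo gate, taken before the Ly6Chi gate, asked for 2 of Ace, Treml4, Eno3 and Spn and not for low Ly6c2. Its cells held 642 to 732 CPM of Ly6c2, against 1682 to 2165 CPM in Ly6Chi monocytes. From ND to CDA-HFD its Ace went from 899 and 801 to 385 and 411 CPM and its Ccr2 from 293 and 297 to 508 and 572 CPM. The class was thus mixed in Ly6c2 and its content differed between diets.

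The class names were checked against markers that the gates had not used. Summed over Vsig4, Marco, Cd163, Folr2 and Clec1b, KC markers reached 6920 and 7424 CPM in the KCs on ND. In the Cd5l+ macrophages on CDA-HFD the same sum was 782 and 1083 CPM, and in the other macrophages 50.7 and 73.6 CPM. Spp1, Gpnmb, Fabp5, Cd9 and Trem2, markers of hepatic lipid-associated macrophages (hLAM), summed to 3495 and 2540 CPM in the Cd5l+ macrophages on CDA-HFD against 3129 and 2437 CPM in the other macrophages of that diet and 105 and 156 CPM in the KCs on ND. The Cd5l+ class on CDA-HFD thus carried both sets of markers, while on ND its few cells held 4606 and 4697 CPM of the KC markers and 172 and 178 CPM of the hLAM markers. In a sum over cells, fewer expressing cells and less RNA per cell cannot be told apart.

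RefSeq promoter windows on GRCm38.p6 were available for 4 of the 6 genes, and the 250 bases before a transcription start are shown for each, since the genes share a cell class and these windows let their sequence be compared. Capitals mark matches on either strand to 6 short motifs: the E-box CANNTG that E proteins bind, the Smad element GGCGCC, the nuclear receptor element AGGTCA, the Ets core GAGGAA, the Maf element TGCTGA and the Egr core GTGGGNG. The windows are Nr1h3 at chr2:91195117-91195366 on the minus strand (the outer of 2 starts), Rxra at chr2:27709042-27709291 on the plus strand (the inner of 2 starts), Id3 at chr4:136143572-136143821 on the plus strand, and Spic at chr10:88683024-88683273 on the minus strand.
Nr1h3: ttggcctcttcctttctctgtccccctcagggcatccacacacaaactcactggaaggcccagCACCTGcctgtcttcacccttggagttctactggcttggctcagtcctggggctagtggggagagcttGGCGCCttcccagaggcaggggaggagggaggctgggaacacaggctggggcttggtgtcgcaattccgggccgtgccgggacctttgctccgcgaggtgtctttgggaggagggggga
Rxra: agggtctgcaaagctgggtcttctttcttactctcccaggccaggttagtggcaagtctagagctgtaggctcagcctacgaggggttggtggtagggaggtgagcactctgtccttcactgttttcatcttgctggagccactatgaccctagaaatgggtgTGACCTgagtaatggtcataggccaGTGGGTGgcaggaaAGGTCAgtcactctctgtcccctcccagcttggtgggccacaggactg
Id3: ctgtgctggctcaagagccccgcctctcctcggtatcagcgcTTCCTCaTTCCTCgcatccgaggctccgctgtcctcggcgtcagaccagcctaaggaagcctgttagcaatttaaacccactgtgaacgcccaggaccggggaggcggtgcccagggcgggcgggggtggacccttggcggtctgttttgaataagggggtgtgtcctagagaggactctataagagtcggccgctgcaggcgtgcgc
Spic: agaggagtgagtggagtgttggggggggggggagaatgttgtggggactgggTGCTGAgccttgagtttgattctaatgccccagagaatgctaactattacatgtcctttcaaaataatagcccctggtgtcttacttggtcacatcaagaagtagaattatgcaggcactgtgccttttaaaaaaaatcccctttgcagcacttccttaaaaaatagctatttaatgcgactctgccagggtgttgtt

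No motif was common to the 4 windows. Nr1h3 held 1 E-box, a motif present in 66.2% of the 32851 promoter windows of this length, and 1 Smad element, present in 9.59%. Rxra held 2 nuclear receptor elements (14.0% of windows had at least 1) and 1 Egr core (28.1%). Id3 held 2 adjacent Ets cores (23.3%) and Spic 1 Maf element (16.1%). At the starts not shown, Nr1h3 held 1 Smad element and 1 Egr core, and Rxra 1 E-box and 1 Egr core. These are letter matches in short windows and carry no information on binding. Of the 6 genes, Nr1h3 (GRCm38, chr2:91184061-91202834) and Maf (chr8:115682942-115707794) overlap other annotated genes, whose counts in the matrix came to 196 and 92 beside 34257 for Nr1h3 and 41880 for Maf.

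Nr1h3 was highest in KCs, intermediate in macrophages and lowest in monocytes. KCs on ND held 439 CPM (interval 429 to 449) in the control and 396 CPM (387 to 406) in the Cre mouse. On CDA-HFD, Cd5l+ macrophages held 231 and 252 CPM, other macrophages 179 and 166 CPM, Ly6Clo monocytes 81.3 and 75.0 CPM and Ly6Chi monocytes 48.9 and 51.7 CPM. That order was the same in both mice, and no 2 neighbouring classes had overlapping intervals within a mouse. On ND, the few Cd5l+ macrophages held 316 and 370 CPM and other macrophages 99.3 and 120 CPM, while Ly6Clo monocytes (37.3 and 19.3 CPM) and Ly6Chi monocytes (28.8 and 34.1 CPM) overlapped.

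Rxra followed a steeper gradient with its top in the KCs of ND. KCs held 197 and 192 CPM, and the intervals of both mice overlapped. Cd5l+ macrophages on CDA-HFD held 74.3 and 83.5 CPM, other macrophages 31.0 and 24.2 CPM, and both monocyte classes lay between 13.7 and 15.9 CPM on that diet. Cd5l+ macrophages on ND held 164 and 138 CPM, above those of CDA-HFD, and their interval overlapped that of the KCs in the control mouse but not in the Cre mouse. The receptor partners Nr1h3 and Rxra thus had the same order of classes on CDA-HFD, except that the Ly6Clo and Ly6Chi monocytes did not differ in Rxra beyond counting error.

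Id1 did not follow that gradient. KCs on ND held 174 CPM in the control and 119 CPM in the Cre mouse. Cd5l+ macrophages reached 224 and 162 CPM on CDA-HFD and 228 and 209 CPM on ND, and other macrophages held 140 and 126 CPM on CDA-HFD. Among the 5 gated classes, where they held at least 20 cells of a mouse, the highest value was the 282 CPM (250 to 317) of the other macrophages of the Cre mouse on ND, measured in 74 cells, against 129 CPM in the control; its interval overlapped those of the Cd5l+ macrophages on ND. The 7 KCs of the control mouse on CDA-HFD held 298 CPM (219 to 396). Monocytes held more Id1 in the mice on CDA-HFD than in those on ND. Ly6Chi monocytes held 23.9 and 14.8 CPM on ND and 109 and 78.0 CPM on CDA-HFD, and Ly6Clo monocytes 13.1 and 12.3 CPM against 82.3 and 59.4 CPM. Diet and animal cannot be told apart here, since each combination of genotype and diet was a single mouse.

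Id3 resembled Id1 in that Cd5l+ macrophages on CDA-HFD lay above the KCs and the monocytes of ND far below them. KCs on ND held 1098 and 812 CPM, Cd5l+ macrophages 1229 and 1149 CPM on CDA-HFD and 453 and 921 CPM on ND, and other macrophages on CDA-HFD 967 and 905 CPM. Ly6Chi monocytes on CDA-HFD were close behind with 826 and 677 CPM, and Ly6Clo monocytes held 755 and 517 CPM. On ND the same monocyte classes held 148 and 182 CPM (Ly6Chi) and 115 and 163 CPM (Ly6Clo), so that no monocyte level on ND reached any level of Id3 in a macrophage class on either diet. The other macrophages of the Cre mouse on ND again held the highest value of the 5 classes where at least 20 cells were present, 1419 CPM (1347 to 1495), against 839 CPM in the control.

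Spic stepped down from KCs to Ly6Chi monocytes, with Ly6Clo monocytes in between. KCs on ND held 106 and 99.2 CPM, Cd5l+ macrophages 81.6 and 71.7 CPM on CDA-HFD and 124 and 54.6 CPM on ND, and other macrophages on CDA-HFD 44.5 and 44.2 CPM. Ly6Clo monocytes on CDA-HFD, with 49.6 and 49.2 CPM, were level with the other macrophages of that diet, as the intervals overlapped in both mice. Ly6Chi monocytes were lowest, at 7.31 and 2.28 CPM on ND (15 and 2 counts) and 15.4 and 19.5 CPM on CDA-HFD. On CDA-HFD, Spic thereby separated the monocyte classes, which Rxra did not. On ND the intervals of Spic in the monocyte classes overlapped in the Cre mouse.

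Maf was high in KCs and macrophages and low in monocytes. KCs on ND held 484 and 451 CPM and Cd5l+ macrophages on ND 517 and 351 CPM. On CDA-HFD, Cd5l+ macrophages held 199 and 296 CPM, other macrophages 195 and 256 CPM, Ly6Clo monocytes 67.8 and 76.0 CPM and Ly6Chi monocytes 75.5 and 99.5 CPM. In both of these macrophage classes of CDA-HFD the Cre mouse was above the control. Other macrophages on ND, with 248 and 417 CPM, were above those of CDA-HFD in the same genotype.

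**Figure D1:**
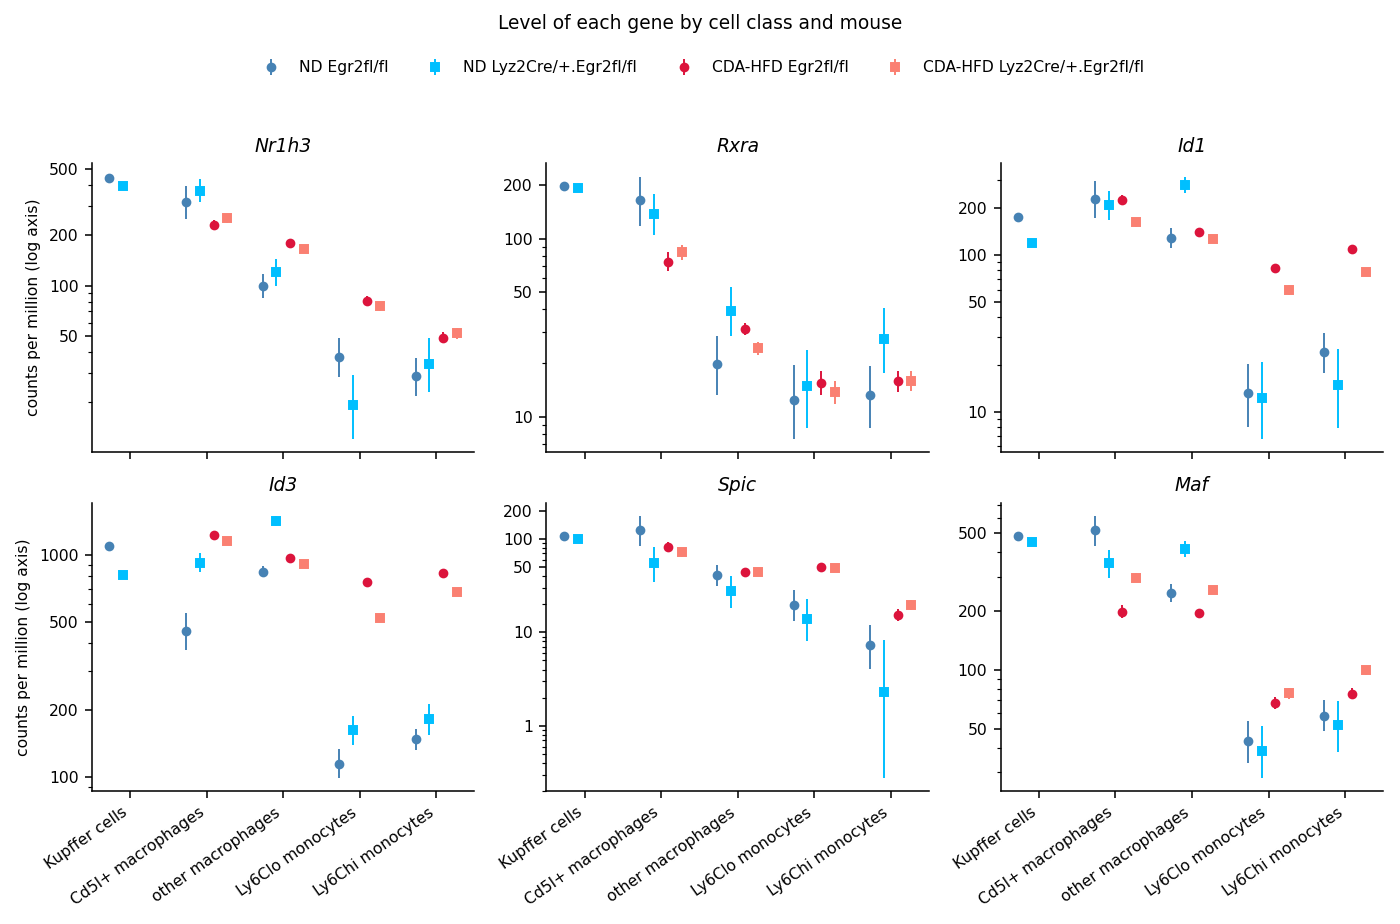
Level of each of the 6 genes in CPM (log axis) for the 5 cell classes, with 1 point per mouse (circles control, squares Cre) and bars for the 95% Poisson interval of the summed counts; classes with fewer than 20 cells in a mouse are left out. Nr1h3, Rxra, Spic and Maf step down from KCs to monocytes, while Id1 and Id3 in the monocytes of CDA-HFD (red) lie far above those of ND (blue), for example 826 against 148 CPM for Id3 in Ly6Chi monocytes of the control mice.

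Cells gated out for endothelial markers held several of the 6 factors. The 25 and 40 such cells on ND held 958 and 1100 CPM of Maf, 299 and 138 CPM of Id1 and 985 and 1406 CPM of Id3. Without that gate the KCs on ND numbered 669 and 744 in place of 662 and 736. Some of the cells gated out thus also passed the KC gate, and their levels are not those of endothelial cells alone. The 8 endothelial markers examined (Clec4g, Stab2, Ptprb, Kdr, Egfl7, Oit3, Pecam1, Cdh5) summed to 455 and 514 CPM in KCs on ND, of which Cdh5 alone made up 284 and 348 CPM and Stab2 112 and 121 CPM. Clec4g, a defining gene of sinusoidal endothelium, stood at 2.78 and 3.44 CPM there. In Cd5l+ macrophages on CDA-HFD the 8 genes summed to 79.1 and 116 CPM and in other macrophages to 21.7 and 25.1 CPM. The part of endothelial RNA in the KC levels was not tested, and with the endothelial-marker cells kept in, the count of the 6 factors past 2-fold was the same in each of the 7 comparisons counted below.

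A gene was counted as past 2-fold in a comparison when its CPM ratio was at least 2, or at most 0.5, in the control pair and in the Cre pair alike. In KCs against Ly6Chi monocytes on ND, 6 of 6 factors were past 2-fold higher, beside 15.8% of the 12447 genes with at least 50 counts. Ratios of Nr1h3 were 15.2 (11.8 to 20) in the control and 11.6 (8.12 to 17.2) in the Cre mouse, those of Rxra 14.9 and 7.02. Id1 stood at 7.26 and 8.03, Id3 at 7.43 and 4.46, and Maf at 8.27 and 8.62. Spic had ratios of 14.5 (8.74 to 25.9) and 43.6 (12.1 to 360), the latter resting on 2 counts in the monocytes of the Cre mouse. In these monocytes of ND, Id1 by CPM was not above the neutrophil reference described below, and Spic by share of cells was near it. The median log2 ratio of all genes was itself shifted, to 0.179 and 0.255, and the log2 ratios of the 6 genes relative to it ran from 1.90 (Id3, Cre mouse) to 5.19 (Spic, Cre mouse).

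Between Cd5l+ macrophages of CDA-HFD and KCs of ND, the factors split. Rxra was the single gene past 2-fold lower, 1 of 6 beside 6.91% of 12752 genes, with ratios of 0.378 (0.333 to 0.429) and 0.435 (0.392 to 0.482), and 0 of 6 were past 2-fold higher, beside 4.38%. Maf was at 0.412 (0.381 to 0.445) in the control pair but 0.657 (0.622 to 0.695) in the Cre pair, Nr1h3 at 0.526 and 0.636, and Spic at 0.771 and 0.723. Id1 (1.29 and 1.36) and Id3 (1.12 and 1.41) were above the KC level in summed counts, each with an interval above 1. In the control pair the median cell was not: it held 901 CPM of Id3 against 972 in KCs and 61.5 CPM of Id1 against 68.0, while the 90th percentile of Id3 was 3127 against 2013 CPM. In the Cre pair the median cell held 933 against 731 CPM of Id3. All genes had a median log2 ratio of -0.123 and -0.131 here; relative to it Rxra lay at -1.28 and -1.07, Maf at -1.16 and -0.47, Id1 at 0.49 and 0.58 and Id3 at 0.29 and 0.63. Class and diet differ together in this comparison and cannot be told apart, since KCs on CDA-HFD numbered 7 and 11 cells.

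Within CDA-HFD, having Cd5l went with more Rxra. Cd5l+ against other macrophages gave Rxra ratios of 2.40 (2.08 to 2.77) and 3.45 (3.02 to 3.93), the only factor past 2-fold, 1 of 6 beside 2.14% of 12967 genes. Spic was at 1.83 and 1.62, Nr1h3 at 1.29 and 1.52, Id1 at 1.59 and 1.29, and Id3 at 1.27 in both mice. Maf, at 1.02 (0.941 to 1.10) and 1.16 (1.09 to 1.22), barely separated the classes, and its interval included 1 in the control.

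Other macrophages against Ly6Chi monocytes of the same diet had 3 of 6 factors past 2-fold higher, beside 5.40% of 13809 genes. These were Nr1h3 (3.66 and 3.21), Spic (2.89 and 2.26) and Maf (2.59 and 2.58). Rxra was just short of that with 1.96 (1.67 to 2.31) and 1.52 (1.30 to 1.78). The inhibitors were also short of 2-fold, with 1.29 and 1.61 for Id1 and 1.17 and 1.34 for Id3.

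Monocytes themselves differed by diet, a comparison chosen after the levels had been seen. Ly6Chi monocytes of CDA-HFD against those of ND had 3 of 6 factors past 2-fold higher, beside 4.64% of 11672 genes: Id1 with ratios of 4.57 (3.44 to 6.21) and 5.28 (3.07 to 9.94), Id3 with 5.59 (4.99 to 6.29) and 3.72 (3.18 to 4.38), and Spic with 2.10 (1.24 to 3.83) and 8.58 (2.35 to 71.2). The Id1 and Spic ratios are over low levels: in the monocytes of ND, Id1 by CPM was not above the neutrophil reference described below, and Spic by share of cells was near it. Nr1h3 stood at 1.70 and 1.51 and Maf at 1.29 and 1.90. Rxra went opposite ways, 1.20 (0.80 to 1.86) in the control and 0.582 (0.382 to 0.927) in the Cre pair. In Ly6Clo monocytes the same contrast gave 6.28 and 4.85 for Id1, 6.55 and 3.17 for Id3, 2.52 and 3.51 for Spic and 2.18 and 3.89 for Nr1h3. Dendritic cell markers moved with this comparison. The 7 of them summed to 238 and 314 CPM in the Ly6Chi monocytes of ND, of which Cd209a made up 215 and 291 CPM and 2 genes in each mouse were at 0, and to 74.2 and 65.0 CPM on CDA-HFD, with 55.0 and 45.9 CPM of Cd209a. Markers of hLAM moved the other way, from 217 and 191 CPM on ND to 745 CPM in the control and still more in the Cre mouse on CDA-HFD, with none of the 5 at 0 and Spp1 at 213 and 345 CPM on the latter. The part of either list in the ratios was not tested. The mice on ND are single animals, so a difference between diets and a difference between animals cannot be told apart.

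**Figure D2:**
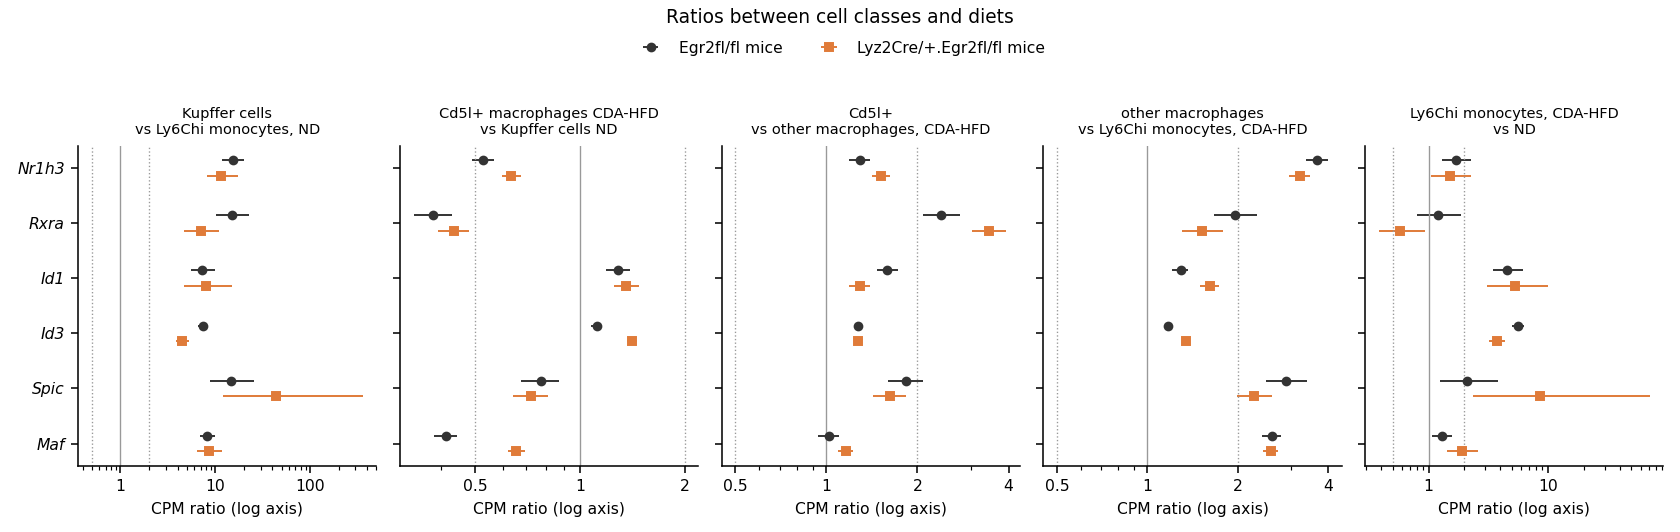
CPM ratio (log axis) of each gene for 5 comparisons, with the control mice as black circles and the Cre mice as orange squares; bars are 95% counting intervals, the solid line marks 1 and the dotted lines 0.5 and 2. All points of the first panel lie right of 2, Rxra lies left of 0.5 in the second and right of 2 in the third, and Id1 and Id3 lie right of 2 in the last.

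Each factor was set beside genes of its own pathway. Of 14 target genes of LXR, Cd5l was fixed by the gates, which put it at 0 in monocytes, and is left out of the counts. Of the other 13, 7 were past 2-fold higher in KCs than in Ly6Chi monocytes on ND, beside 15.8% of all genes: Abca1 and Abcg1 (sterol export), Apoe, Pltp (phospholipid transfer), Mylip, Scd1 and Mertk. Their median log2 ratio was 1.43 and 1.24. Abca1 stood at 122 and 190 CPM in KCs against 6.34 and 5.69 CPM in the monocytes, and Pltp at 1029 and 1224 against 53.6 and 55.8 CPM. In Cd5l+ macrophages of CDA-HFD against KCs of ND the median log2 ratio of these 13 was 0.17 and -0.19, with 0 past 2-fold higher (4.38% of all genes) and 1 past 2-fold lower (Scd1, beside 6.91%).

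Among partner and related nuclear receptors, Thrb, a thyroid hormone receptor gene, was the one past 2-fold higher in KCs than in Ly6Chi monocytes. It held 30.0 and 37.4 CPM in KCs on ND, 5.85 and 6.88 CPM in Cd5l+ macrophages of CDA-HFD, and 0 counts in the Ly6Chi monocytes of both ND mice. Rara, a retinoic acid receptor gene, was past 2-fold lower in KCs than in those monocytes, 18.1 and 23.7 against 78.0 and 100 CPM. Pparg was past 2-fold higher in Cd5l+ macrophages of CDA-HFD (45.9 and 43.8 CPM) than in KCs of ND (9.0 and 6.94 CPM). Counted over the 8 of 11 receptors with at least 50 counts, 1 was higher and 2 lower in the KC against monocyte comparison, beside 15.8% and 7.14% of all genes, so the share of receptors that were higher was near that of all genes. Cd5l+ macrophages against KCs gave the same numbers, beside 4.38% and 6.91%. Nr1h2, which encodes LXRbeta, was not past 2-fold in either, with ratios of 1.16 and 1.02, then 0.684 and 0.790.

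For the Id genes, 15 receptors and mediators of BMP, activin and TGF-beta signalling were examined, and 7 were past 2-fold higher in KCs than in Ly6Chi monocytes on ND, beside 15.8% of all genes (median log2 ratio 0.99 and 1.05). They included the receptors Acvrl1 (88.7 and 91.2 against 33.6 and 36.4 CPM) and Tgfbr2 (110 and 122 against 36.1 and 46.7 CPM) and the mediators Smad1 and Smad5. Smad6 and Smad7, the inhibitory Smads, were also among them, although Smad6 rested on 4 and 3 counts in the monocytes and Smad7 on 3 counts in those of the Cre mouse. Smad3 was past 2-fold lower, 1 of 15 beside 7.14% of all genes. For Ly6Chi monocytes of CDA-HFD against ND, in which Id1 and Id3 were past 2-fold, 2 of the 14 with enough counts were past 2-fold higher (Tgfbr1 and Smad7), beside 4.64% of all genes. Id2 was the third Id gene past 2-fold there, with 249 and 134 CPM on ND and 561 and 391 CPM on CDA-HFD, and was also past 2-fold higher in Cd5l+ macrophages of CDA-HFD (1265 and 886 CPM) than in KCs of ND (451 and 383 CPM). Tcf3, an E protein gene, was past 2-fold lower in that last comparison, 13.4 and 11.8 against 30.4 and 29.3 CPM. Of the 5 Notch pathway genes with at least 50 counts, the targets Hes1 and Hey1 were past 2-fold higher in KCs than in Ly6Chi monocytes on ND, whereas Notch2 and Rbpj were past 2-fold lower, that is 2 of 5 each way beside 15.8% and 7.14% of all genes.

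Genes listed for heme and iron handling, the setting in which Spic is best known, differed widely between KCs and monocytes. Of 8 examined, 6 were past 2-fold higher in KCs than in Ly6Chi monocytes on ND, beside 15.8% of all genes, with a median log2 ratio of 3.12 and 3.41. They were Hmox1, Slc40a1, Blvrb, Ftl1, Cd163 and Vcam1. Vcam1 encodes an adhesion molecule, and Cd163 was also among the KC markers of the class check. Slc40a1, the iron exporter ferroportin, held 2117 and 1735 CPM against 5.36 and 4.55 CPM, and Hmox1, heme oxygenase, 1237 and 1060 against 113 and 78.5 CPM. Bach1, a repressor of Hmox1, was past 2-fold lower, 1 of 8 beside 7.14%. Cd5l+ macrophages of CDA-HFD held 464 and 503 CPM of Slc40a1, under the KCs yet above the 55.9 and 58.2 CPM of the other macrophages. The ratio between these macrophage classes was 8.30 and 8.64 for Slc40a1 and 1.83 and 1.62 for Spic.

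Maff, which encodes a small Maf protein, was past 2-fold higher in Cd5l+ macrophages of CDA-HFD than in KCs of ND, 36.7 and 19.8 against 3.08 and 1.90 CPM. It was also past 2-fold higher in the Ly6Chi monocytes of CDA-HFD than of ND, though it rested on 22 and 2 counts in the latter. Of 3 Ets genes near Spic, Ets2 was past 2-fold higher in KCs than in Ly6Chi monocytes on ND, 1 of 3 beside 15.8% of all genes, while Spi1, which encodes PU.1, had ratios between 0.770 and 1.11 in the 5 comparisons between classes and diets. Of 8 other macrophage factors, Tfec and Tcf7l2 were past 2-fold higher and Atf3 lower in KCs than in Ly6Chi monocytes on ND, 2 and 1 of 8 beside 15.8% and 7.14% of all genes. Atf3, a stress-induced factor, stood at 1223 and 1007 CPM in the Ly6Chi monocytes of CDA-HFD and at 180 and 155 CPM in those of ND, and its part in the diet difference of Id1 and Id3 was not tested.

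Between the Cre and the control mouse, none of the 6 factors differed past 2-fold in KCs on ND (0 of 6 beside 2.21% of 12140 genes) or in Cd5l+ macrophages on CDA-HFD (0 of 6 beside 4.29% of 9070 genes). Smaller differences exceeded counting error. In KCs the Cre over control ratio was 0.684 (0.646 to 0.725) for Id1 and 0.740 (0.723 to 0.756) for Id3, while Nr1h3 (0.903), Rxra (0.976), Spic (0.938) and Maf (0.932) were nearer to 1. In Cd5l+ macrophages the largest was Maf at 1.49 (1.36 to 1.63), from 199 to 296 CPM, followed by Id1 at 0.723 (0.655 to 0.798). From control to Cre, these macrophages also went from 361 to 703 CPM of Clec4f and from 782 to 1083 CPM of the summed KC markers. Their hLAM markers went from 3495 to 2540 CPM, and Mki67 with Top2a from 18.9 to 47.3 CPM. The part of these shifts in the ratios was not tested. Whether 1 mouse differs from another by this much without any deletion was not measured. Egr2 itself was low in KCs on ND, at 5.07 CPM in the control and 0.949 CPM in the Cre mouse. On CDA-HFD it stood at 49.0 and 2.36 CPM in Cd5l+ macrophages and at 57.3 and 13.8 CPM in other macrophages.

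Across the remaining classes of CDA-HFD the genotype ratios repeated for 3 genes. Maf was higher in the Cre mouse in other macrophages (1.31, interval 1.26 to 1.37), Ly6Chi monocytes (1.32, 1.21 to 1.43) and Ly6Clo monocytes (1.12, 1.02 to 1.24). Id1 was lower in the Cre mouse in the same classes, at 0.895 (0.849 to 0.943), 0.714 (0.660 to 0.772) and 0.723 (0.654 to 0.798). Id3 was lower too, at 0.935 (0.899 to 0.972) in Cd5l+ macrophages and then at 0.936 (0.918 to 0.955), 0.820 (0.798 to 0.843) and 0.684 (0.662 to 0.707). All of these classes come from the same pair of mice, so they are not separate replicates. Nr1h3 lay between 0.923 and 1.09 in the 4 classes of CDA-HFD.

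**Figure D3:**
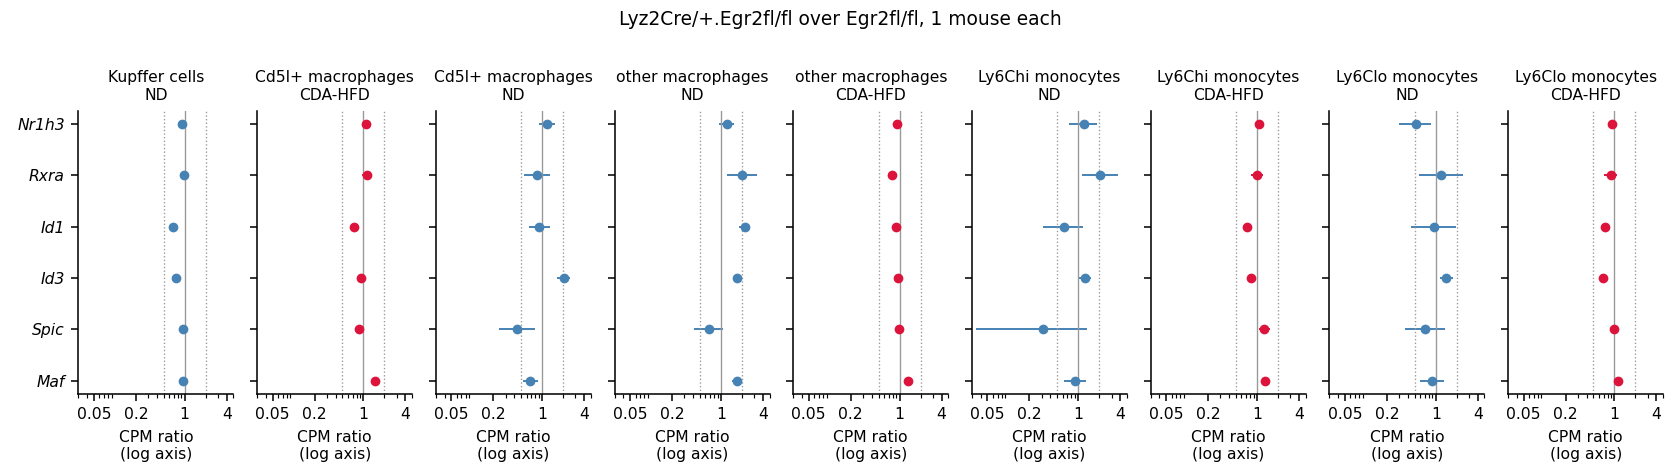
CPM ratio (log axis) of the Cre over the control mouse for each gene in 9 combinations of class and diet, blue for ND and red for CDA-HFD; bars are 95% counting intervals and dotted lines mark 0.5 and 2. In KCs on ND and in Cd5l+ macrophages on CDA-HFD all 6 points lie between the dotted lines, from 0.684 for Id1 to 1.49 for Maf.

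Shares of cells with a count were compared after thinning each cell to 5000 counts, since KCs were deeper (medians of 25621 and 23355 counts) than Ly6Chi monocytes (12807 and 13265 counts on ND). Nr1h3 was detected in 78.5% (75.2 to 81.7) and 70.7% (67.2 to 74.0) of thinned KCs on ND, in 60.4% and 63.2% of Cd5l+ macrophages on CDA-HFD, in 44.1% and 39.3% of other macrophages and in 12.0% and 12.9% of Ly6Chi monocytes of that diet. Without thinning, Nr1h3 was found in 95% and 88.6% of KCs. Neutrophils with S100a9 and Retnlg and without the macrophage gate genes, a class set after the values were seen, served as a reference. Neutrophils had been named in advance as a class that should lack Nr1h3, Spic and Id3, but not Id1, Rxra or Maf. The median depth of the reference cells was 3791 to 4164 counts, so that only the deepest of them remained after thinning. There Nr1h3 was found in 8.33%, 9.0% and 5.38% of the thinned cells of the 3 mice with at least 20 of them, so the thinned shares in Ly6Chi monocytes were little above them. By CPM, Nr1h3 in the Ly6Chi monocytes of CDA-HFD (48.9 and 51.7) lay above the reference cells of the same mice, 25.3 (18.9 to 33.0) and 10.1 (5.99 to 16.0), with intervals that did not overlap. On ND, the side that the KC ratios were taken over, Nr1h3 was found in 14 of 148 and 5 of 67 thinned Ly6Chi monocytes. Those shares were near the 8.33% of the reference in the Cre mouse on ND.

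Rxra was detected in 58.8% and 56.7% of thinned KCs and Maf in 84.4% and 81.5%. Id3 was found in 94.4% and 91.2% of KCs and in 71.1% and 62.4% of Ly6Chi monocytes on CDA-HFD, but in 20.9% and 25.4% of those on ND. The neutrophil reference had 37.5% (24 cells) in the Cre mouse on ND and 22.0% and 31.2% on CDA-HFD, and the control on ND held only 11 such cells. By these shares Id3 in the Ly6Chi monocytes of the Cre mouse on ND was not above its reference, while by CPM the 148 (132 to 165) and 182 (155 to 213) of the Ly6Chi monocytes overlapped the 93.5 (62.1 to 135) of the reference in the control but not the 91.2 (69.1 to 118) in the Cre mouse. Id1 in Ly6Chi monocytes went from 6.76% and 4.48% on ND to 21.9% and 16.9% on CDA-HFD, beside 4.0% to 5.38% in the reference. By CPM the reference held 93.5 and 46.4 of Id1 on ND, above the 23.9 and 14.8 CPM of those monocytes, and 30.0 and 40.4 CPM on CDA-HFD, below their 109 and 78.0 CPM, so Id1 in ND monocytes was not above the reference. The reference was not chosen as a class without Id1, so this cannot decide whether those monocytes lacked it. Spic was found in 28.9% and 27.7% of thinned KCs, 20.7% and 18.1% of Cd5l+ macrophages on CDA-HFD, and at most 2.00% of the reference cells. In Ly6Chi monocytes on ND it was found in 3 of 148 and 1 of 67 thinned cells, near the share of the reference. The Spic ratios over those monocytes rest on that level.

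**Figure D4:**
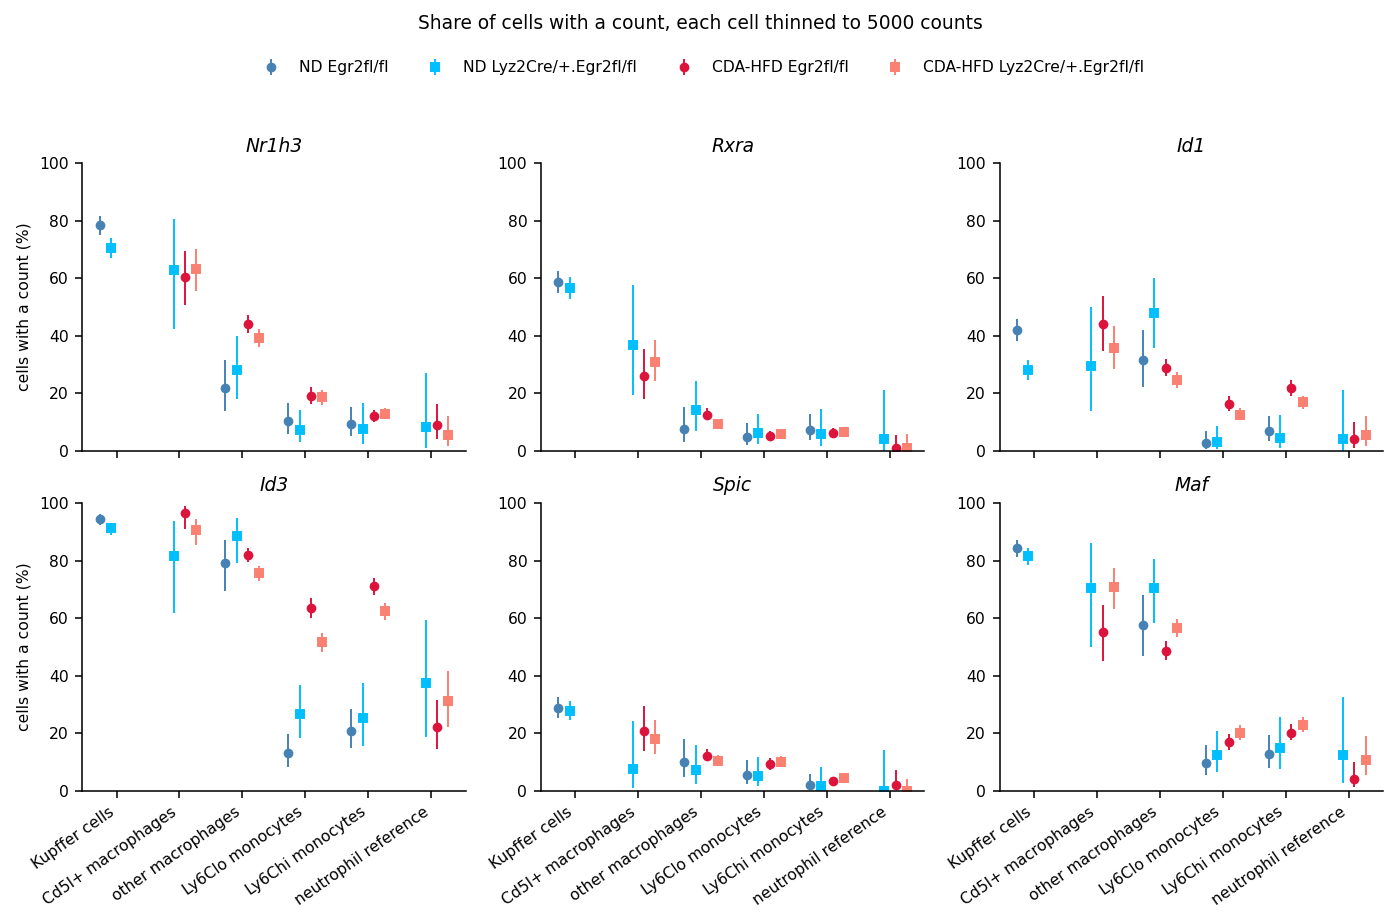
Percent of cells with at least 1 count of each gene after thinning to 5000 counts, by class and mouse (blue ND, red CDA-HFD, circles control, squares Cre), with 95% exact binomial intervals. Points with fewer than 20 thinned cells are left out, and the neutrophil reference stands at the right for comparison. Id3 in monocytes separates by diet (71.1% and 62.4% against 20.9% and 25.4% in Ly6Chi monocytes), and Nr1h3, Rxra and Maf step down from KCs.

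Single cells were then scored by how many of the 6 factors they held. Thinned KCs on ND held 3.87 (SD 1.07 over 648 cells) and 3.56 (SD 1.09 over 714 cells) of the 6 on average, Cd5l+ macrophages on CDA-HFD 3.03 and 3.09, and other macrophages on CDA-HFD 2.29 and 2.16. Ly6Chi monocytes held 1.35 and 1.26 on CDA-HFD and 0.595 and 0.597 on ND, the latter within the 0.420 to 0.667 of the neutrophil reference. At least 4 factors were found together in 65.9% (62.1 to 69.5) and 54.2% (50.5 to 57.9) of KCs, in 35.1% (26.3 to 44.8) and 37.4% (30.2 to 45.1) of Cd5l+ macrophages on CDA-HFD, and in 14.2% and 12.3% of other macrophages. All 6 appeared in 29 and 14 thinned KCs.

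**Figure D5:**
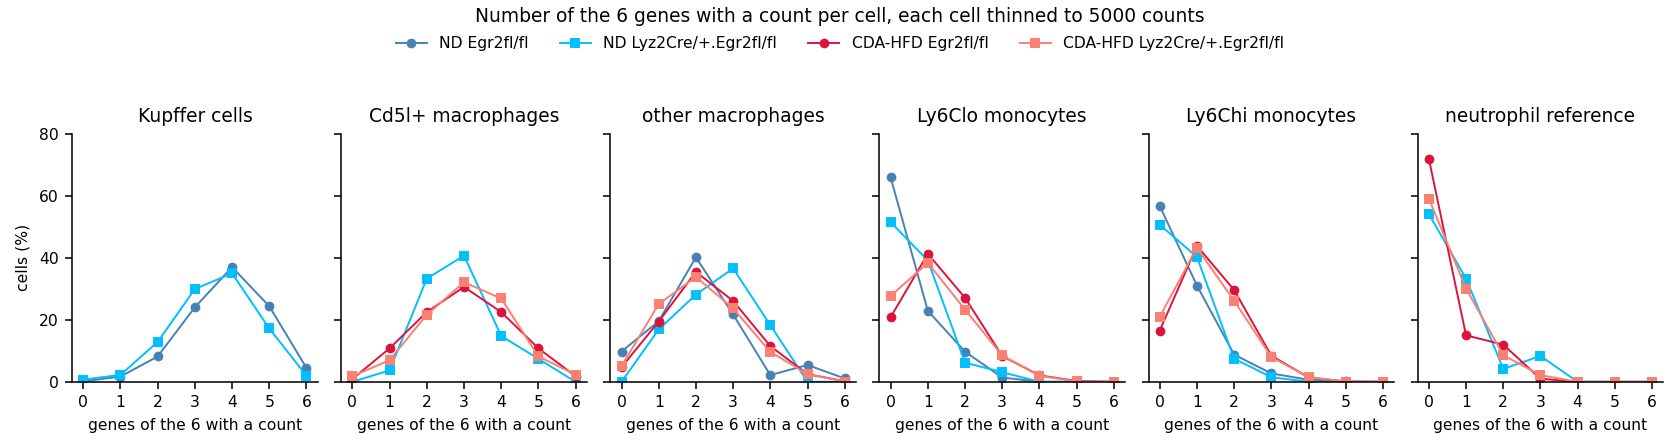
Percent of cells (y axis) by the number of the 6 genes with a count (x axis) after thinning to 5000 counts, with a line per mouse (blue ND, red CDA-HFD, circles control, squares Cre) and a panel per class. The peak lies at 4 genes in KCs, 3 in Cd5l+ macrophages and, on CDA-HFD, 2 in other macrophages and 1 in both monocyte classes, while on ND most monocytes held none.

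Within the KCs of a mouse the factors varied from cell to cell with only weak correlations. Levels per cell of Nr1h3 had a median of 370 CPM in the control, with a 10th percentile of 84.2 and a 90th of 831 CPM, and Id3 had a median of 972 CPM between 340 and 2013 CPM. Over the 15 pairs of factors in each ND mouse, Spearman correlations of the thinned counts ran from -0.08 to 0.11, as a description of sparse counts. KCs with a Nr1h3 count held Rxra in 60.5% of cells and those without in 52.5% (control mouse), and in the Cre mouse 56.8% and 56.5%.

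Across the 18 combinations of class and mouse with at least 20 cells, log2 levels of Id1 and Id3 had a Pearson correlation of 0.924 and those of Nr1h3 and Maf of 0.920, while Rxra and Id3 were least alike at 0.475. These points share mice, capture and depth and are given as a description. Among the 10427 genes with at least 500 counts, those most like the factors, with their correlations, were Blvrb (biliverdin reductase), Atp13a2 and Acp2 for Nr1h3 (0.965 to 0.967), Cfp (properdin), Cd164 and Cd302 for Rxra (0.969 to 0.975) and Rasgef1b for Id1 (0.976). For Id3 they were Adam10, Tnfrsf11a and Cxcl14 (0.930 to 0.956), for Spic Slc11a1 (the phagosomal metal transporter Nramp1), Agpat3 and Acp2 (0.916 to 0.940), and for Maf Tm4sf5, the gate gene C1qc and Camk1 (0.967 to 0.970).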

How the data were processed

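CD45.2+ CD11b+ cells negative for CD90.2, B220, NK1.1 and SiglecF were sorted from liver, loaded as 3000 cells for each mouse on ND and 9000 for each on CDA-HFD, and sequenced as 3' single-cell libraries on BD Rhapsody with TAS-Seq amplification. The authors deposited a matrix of counts per gene and cell, mapped to GRCm38, and counts of hashtags per cell. The submitters' processing notes name Seurat 4.1.1 and R 4.2.1. Whether the counts are reads or unique molecules, and whether counting used strand, is not given in the sources used here. The lowest value above 0 was 8 counts for Clec4f and 7 for Cd5l but 1 for each of the 6 factors, so a gate on Clec4f or Cd5l asks for more than a single count. Of 16786 barcodes, 1392 that the authors had named doublets were left out, as were 10 cells with over 25% mitochondrial counts. Doublets within a mouse were not called. The 7 hashtag columns of no sample here were not used.

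Cells were given to a mouse by the authors' hashtag call and gated in order. Cells with markers of neutrophils (3 of 6), dendritic cells (2 of 7), lymphocytes (2 of 8), basophils (2 of 4) or endothelial cells (3 of 6) were left out first, then KCs, Cd5l+ macrophages, other macrophages, Ly6Clo monocytes (2 of Ace, Treml4, Eno3 and Spn) and Ly6Chi monocytes were taken. The basophil rule, whose genes include Mcpt8, Fcer1a and Cpa3, took 0 cells in every mouse, so any basophils present were not removed by it. Counts were summed per class and mouse and divided by the class total (CPM). Ratios carry Clopper-Pearson intervals from the split of the counts, which cover counting error only. With 1 mouse per combination of genotype and diet no test was run and no p-value is given; the class comparisons, paired within 2 mice, would leave 1 residual degree of freedom. The 6 genes, the gene lists and the gates were chosen with earlier results of these data known; genes named are the 6, the gate genes, the genes of the lists and, per factor, up to 3 genes most correlated with it. Apoa1, Ppara, Mcpt8, Fcer1a and Cpa3 were not analysed here. Some listed results are not reported here. Alternatives covered the mitochondrial limit (none, 10%), hashtag purity (90%), TMM scaling, means over cells, endothelial-marker cells, the deepest cells, each gate, thinning and the count minimum (500). Python 3.11.15, NumPy 2.4.6, SciPy 1.17.1, pandas 2.3.3, matplotlib 3.10.9 and edgeR 4.0.16 in R 4.3.3 were used.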

Additional observations from a re-analysis of the deposited data

Results flagged for a closer look

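Genotype ratios (Cre over control, CPM) lay on opposite sides of 1 on the 2 diets, with counting intervals that excluded 1 on both, for 7 combinations of factor and class among the 4 classes with at least 20 cells in every mouse; the difference between diets was not tested, as each ratio comes from 1 pair of mice. In Cd5l+ macrophages, of which ND gave 26 and 31 cells, Id3 stood at 2.04 on ND and 0.935 on CDA-HFD, and Maf at 0.680 and 1.49. This class differed in content between diets: it held 4610 and 4987 CPM of Clec4f on ND, against 361 and 703 CPM on CDA-HFD. With a KC gate of Clec4f or Timd4, only 1 and 4 Cd5l+ macrophages remained on ND, so most of them lay close to the KC gate. In other macrophages, Rxra stood at 2.00 on ND and 0.782 on CDA-HFD, Id1 at 2.19 and 0.895, and Id3 at 1.69 and 0.936. The 74 other macrophages of the Cre mouse on ND also held more of the KC gene Clec4f, 186 CPM against 19.0 CPM in the control, and its part in these ratios was not tested. In Ly6Chi monocytes Id3 stood at 1.23 on ND and 0.820 on CDA-HFD, and in Ly6Clo monocytes at 1.41 and 0.684.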

How the results depend on the processing

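Counts of factors past 2-fold changed by more than 1.5 times in 1 case: for Cd5l+ macrophages of CDA-HFD against KCs of ND, the control pair alone gave 2 (Rxra and Maf) in place of 1, by construction, since 1 pair has to pass in place of 2. The alternatives of the mitochondrial limit, hashtag purity, scaling, gates, endothelial-marker cells and deep cells, as well as a neutrophil exclusion by S100a9 and Retnlg added after the data were seen (which gave 708 and 774 KCs on ND in place of 662 and 736), left the counts of the planned comparisons as given: 6 for KCs against Ly6Chi monocytes, 1 for Cd5l+ macrophages against KCs, 1 against other macrophages, 3 for other macrophages against Ly6Chi monocytes, and 0 for both genotype comparisons. In the added comparison of Ly6Chi monocytes between diets, a KC gate of Clec4f or Timd4 gave 2 in place of 3, without Spic. Of 504 log2 ratios of single factors under these alternatives, 462 stayed within the counting interval and 42 moved beyond it, by at most 0.50, and 3 changed sign, none of them a ratio past 2-fold. Thinning moved 73 of 108 shares of cells beyond their interval, and a minimum of 500 counts moved 7 of 12 percentages of all genes past 2-fold by over 1.5 times. No paired test was run: the class comparisons pair 2 mice of different genotype, which would leave 1 residual degree of freedom. Depth limits the ratios of Spic, Rxra and Id1 that rest on monocytes of ND, where the sums were 2 to 49 counts. In the Cre mouse on ND, Nr1h3 in both monocyte classes and Maf in Ly6Chi monocytes also rested on sums within that range.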
